A study of Rattus norvegicus with 16 samples.

Results

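Matrix metalloproteinases and their tissue inhibitors were followed in the lungs and the adipose tissue of rats exposed to house dust mite (HDM). The set holds 9 genes, 6 enzymes (Mmp2, Mmp3, Mmp8, Mmp9, Mmp12 and Mmp14) and 3 inhibitors (Timp1, Timp2 and Timp3). They were found by the RefSeq transcript that the array design gives for each probe, which led to 12 probes of these 9 genes, out of 45598 rat probes on the array and 16678 gene symbols that could be matched. Each gene is described at the probe with the highest mean signal in the tissue, and the other probes of a gene stand beside it as a check.

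Matrix metalloproteinases are zinc enzymes that cut collagens, elastin, gelatins and many other proteins outside the cell, and most leave the cell as inactive forms that must be opened before they work. Mmp8 and Mmp9 are stored in the granules of neutrophils, Mmp2, Mmp3 and Mmp14 are made mostly by fibroblasts and other stromal cells, and Mmp12 is the elastase of macrophages. Timp1, Timp2 and Timp3 bind the active enzymes and block them, and the balance of enzymes and inhibitors is known for its part in the remodelling of the airway wall in asthma and of growing fat tissue.

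Lung and adipose tissue came from 8 male Brown Norway rats, 7 weeks old when the protocol began, a strain that mounts strong allergic responses. The 5 HDM rats went through 2 phases of 3 weeks each. Sensitization was a weekly dose of 45 µg under the skin, mixed with aluminium hydroxide, and the challenge was 120 µg into the nose on 3 occasions a week. The 3 control rats received saline by the same routes, also with aluminium hydroxide at sensitization, so the adjuvant was shared by both groups. From each sample, 50 ng of RNA was labelled with a single dye (Cy3) and put on 1 Agilent array, 16 arrays in all. With so few arrays, their number limits how precise any value can be.

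Levels are given as log2 signal relative to the 75th percentile of the array, so a value of 0 is the 75th percentile itself, and levels of different genes cannot be compared because each probe has its own brightness. A gene called the brightest of a list is the one whose probe gave the most signal, which does not rank expression. That percentile lay between 376 and 488 units of signal on the lung arrays and between 111 and 240 on the adipose arrays. A probe was well above background, by the mark of the scanner software, for 62.1% to 68.8% of probes in lung and 50.4% to 60.2% in adipose tissue. A difference was called when its adjusted p was below 0.05 and its fold change above 1.5. All probes were tested with limma, with Benjamini-Hochberg adjustment, and every adjusted p below comes from it.

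The tissue labels were checked first. Sftpc, Sftpb, Sftpa1, Scgb1a1 and Ager, genes of the alveolar and airway lining, were well above background on all 8 lung arrays, and Adipoq, Plin1, Fabp4, Lep and Cidec, genes of fat cells, on all 8 adipose arrays. Some arrays stood apart. In adipose tissue, 8 genes of the epididymis were well above background in HDM rat 1 and control rat 1, where their summed signal was 2353 and 3585 times the 75th percentile, against at most 29.1 in the other 6 rats. Adipose HDM rat 2 had 1224 spots marked as outliers, against at most 444 on any other adipose array. In lung, HDM rat 3 was the farthest of its group for several of the 9 genes, as given with each. All lung arrays lay on 1 slide and all adipose arrays on another, so slide and tissue cannot be told apart. On each slide HDM rats 1 to 4 filled the first row, and HDM rat 5 lay beside the 3 controls in the second.

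In lung, 2 of the 9 genes passed the test. Mmp8 and Mmp9, the neutrophil enzymes, were both higher in HDM rats. None of the stromal enzymes, the macrophage enzyme or the inhibitors passed, and no gene was called lower. Of all probes, 0.482% were called higher in lung and 0.373% lower. The median difference over the 9 genes was 0.30 on the log2 scale, against 0.00 over all probes. That median is the value of Mmp3, which was well above background on only 1 of 8 lung arrays, and the genes next to it in order were Timp1 at 0.16 and Mmp14 at 0.33. In adipose tissue 0 of the 9 genes were called, where 0% of all probes were called higher and 0% lower. The smallest adjusted p of any adipose probe was 0.0853, and 4515 adipose probes had an unadjusted p below 0.05, among them 1 of the 9 genes (Mmp14).

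Promoter sequences of the genes are shown before their values, because several of the enzymes lie next to each other and their start regions can be read side by side. In the RefSeq gene order of rat, 10 metalloproteinase genes follow one another with no other protein-coding gene between them: Mmp13, Mmp12, Mmp1b, Mmp3, Mmp1, Mmp10, Mmp8, Mmp27, Mmp20 and Mmp7. Of these, 9 had a probe, and Mmp8 was the one called in lung. Only Mmp8 and Mmp12 of this run were well above background on all 8 lung arrays. The 150 bases before the start of Mmp8, Mmp3 and Mmp12, and of the inhibitor Timp3, are given 5′ to 3′ from RefSeq (GRCr8 assembly). These windows lie at chr8:13008740-13008889 for Mmp8, chr8:12925131-12925280 for Mmp3 and chr8:12866502-12866651 for Mmp12 on the plus strand, and at chr7:19459559-19459708 for Timp3 on the minus strand. The start is that of the transcript in the RefSeq promoter table, which for Mmp8 and Mmp3 lies a few bases inside the gene record, so their windows end within it. Capitals mark matches, on either strand, to 3 motifs that do not overlap here. The AP-1 motif was searched as TGANTCA. For the TATA motif the letters were TATAAA. The GC box was read as GGGCGG.
Mmp8: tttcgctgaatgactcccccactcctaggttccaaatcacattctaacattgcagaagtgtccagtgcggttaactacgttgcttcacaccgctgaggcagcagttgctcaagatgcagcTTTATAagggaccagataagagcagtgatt
Mmp3: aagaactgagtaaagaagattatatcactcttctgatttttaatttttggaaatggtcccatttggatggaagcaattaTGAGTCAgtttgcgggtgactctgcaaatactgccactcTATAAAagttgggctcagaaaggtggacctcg
Mmp12: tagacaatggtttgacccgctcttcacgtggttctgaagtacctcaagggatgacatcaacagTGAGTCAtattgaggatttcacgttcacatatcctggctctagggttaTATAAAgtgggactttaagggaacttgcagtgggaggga
Timp3: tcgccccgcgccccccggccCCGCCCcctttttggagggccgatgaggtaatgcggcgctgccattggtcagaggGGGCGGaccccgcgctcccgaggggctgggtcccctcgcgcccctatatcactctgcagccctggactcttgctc

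A match is only a description of letters. In the 250 bases before the start, the AP-1 motif began 71 bases before the start of Mmp3 and 87 bases before that of Mmp12, and the letters were not found for Mmp8. The TATA motif began 30 bases before the start of Mmp8, 32 before Mmp3 and 39 before Mmp12. The same windows of Timp1, Timp2 and Timp3 held 1, 1 and 3 GC boxes and neither of the other motifs. Of all 33469 RefSeq promoters of this length, 6.34% held the AP-1 motif, 12.9% the TATA motif and 30.5% the GC box. Promoters of Mmp2, Mmp9 and Mmp14 were not analysed here.

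Mmp8, the collagenase of neutrophil granules, had the largest difference of the 9 genes in lung. Its log2 signal was -0.25, -0.70, 0.02, -0.40 and -1.14 in HDM rats 1 to 5, and -4.58, -4.42 and -4.33 in control rats 1 to 3. The groups were far apart, and the lowest HDM rat (rat 5) was still above every control. The signal was 15.5-fold higher in HDM rats, a log2 difference of 3.95 ± 0.25 (SE, n = 5 and 3, 95% confidence interval 3.37 to 4.53), with an adjusted p of 0.000638 by limma. An exact permutation test of this value alone gave a two-sided p of 0.0179, which is the smallest that the 56 splits of 8 rats allow.

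Mmp9, the gelatinase that neutrophils also store and that activated macrophages and epithelial cells can make, followed closely. Its log2 signal in lung was -1.16, -1.58, -1.02, -0.85 and -1.66 in HDM rats 1 to 5, and -4.71, -4.33 and -4.41 in the controls. Again all HDM rats were above all controls, with rat 5 lowest. The signal was 9.39-fold higher, a log2 difference of 3.23 ± 0.21 (SE, n = 5 and 3, interval 2.74 to 3.72), with an adjusted p of 0.000736 by limma. These were the 2 of 9 genes with all HDM rats above all controls in lung, where 4.65% of all probes showed that order.

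Both differences were recomputed around the arrays in doubt. Without HDM rat 3 the log2 difference was 3.82 for Mmp8 and 3.17 for Mmp9. Between HDM rat 5 and the 3 controls that shared its row of the slide, it was 3.31 for Mmp8 (adjusted p = 0.0235 by limma with the row as a block) and 2.83 for Mmp9 (adjusted p = 0.0539, which missed the threshold). This sets a single HDM rat against the controls, and the p-values assume that it varies like the other rats. After normexp correction with an offset of 50 followed by quantile normalization, the log2 difference was smaller, 2.08 for Mmp8 and 1.61 for Mmp9. In whole tissue, more cells of a type and more RNA per cell cannot be told apart.

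**Figure D1:**
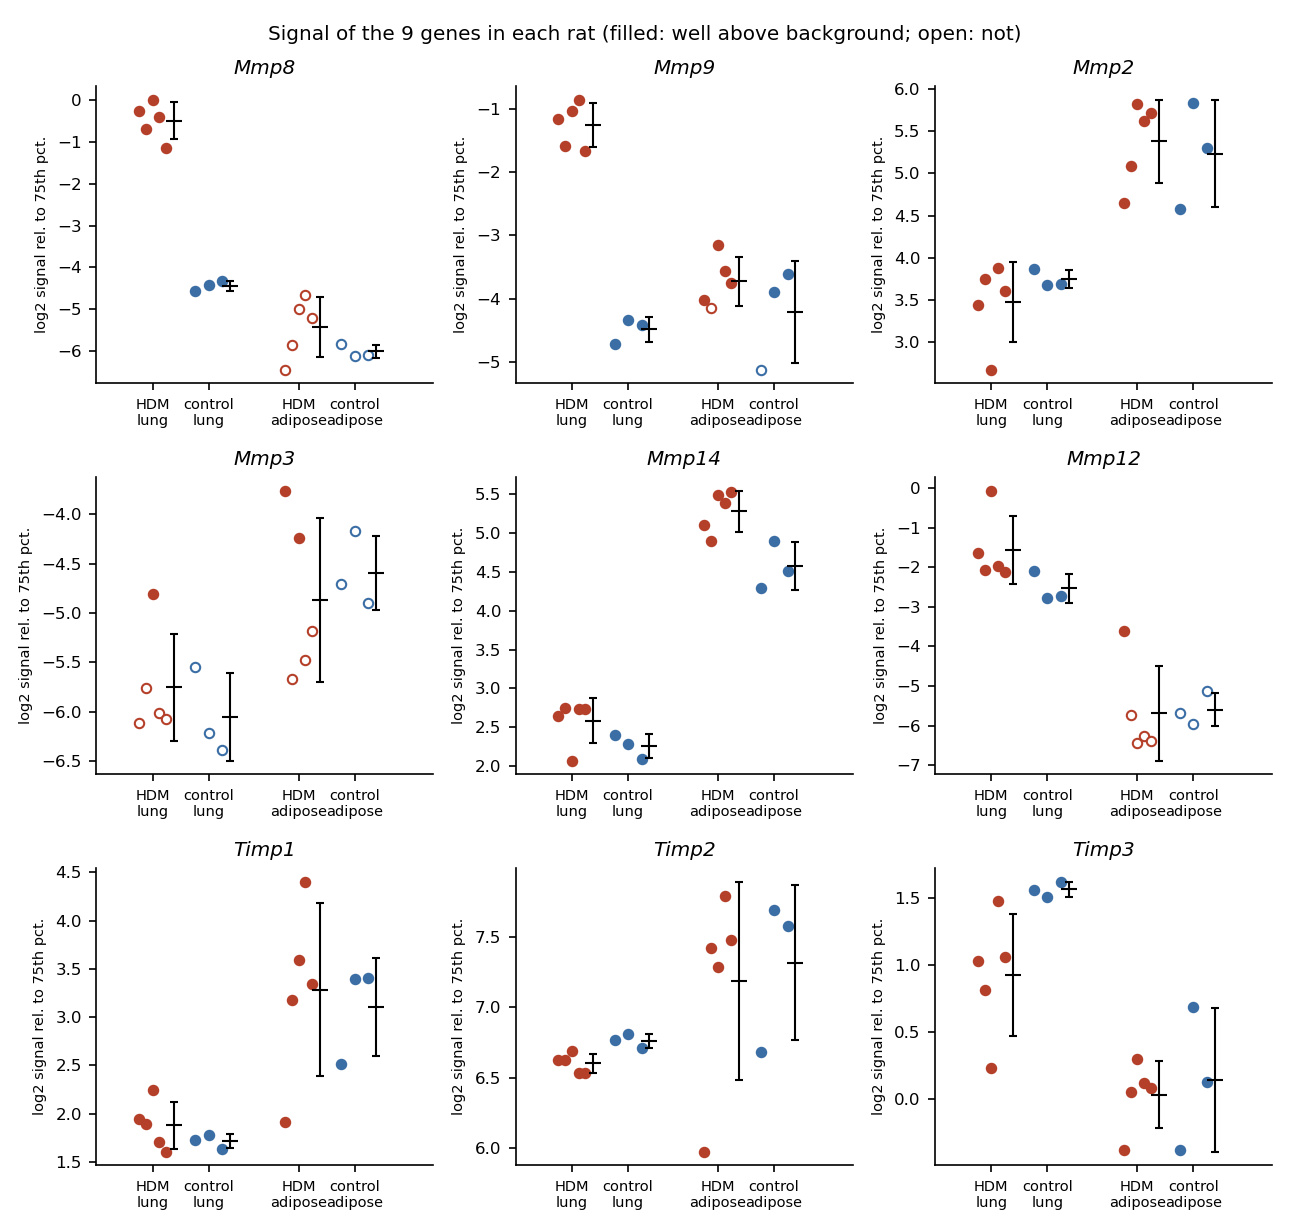
Log2 signal relative to the 75th percentile of the array (vertical axes, a separate scale for each gene) of the 9 genes in 5 HDM rats (red) and 3 control rats (blue), in lung and adipose tissue. Points are single rats, filled where the probe was well above background, and bars are the mean ± SD. In lung the HDM rats lie between -1.14 and 0.02 for Mmp8 and between -1.66 and -0.85 for Mmp9, above all controls, while the groups overlap for the stromal enzymes, Mmp12 and Timp1.

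The stromal enzymes did not show such a separation in lung. Mmp2, the gelatinase of fibroblasts, measured 3.44, 3.75, 2.68, 3.89 and 3.61 in HDM rats and 3.87, 3.68 and 3.69 in the controls. The groups overlapped, and HDM rat 3 lay below all other rats. HDM rats differed from controls by -0.27 on the log2 scale (95% confidence interval -0.88 to 0.33) with an adjusted p of 0.878 by limma. It was -0.08 without HDM rat 3, and the second Mmp2 probe gave -0.15.

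Mmp14, a membrane-bound enzyme that opens the inactive form of Mmp2, measured 2.64, 2.75, 2.07, 2.73 and 2.74 in the lungs of HDM rats and 2.40, 2.29 and 2.09 in the controls. Of the HDM rats, 4 lay above every control, and rat 3 lay below all of them. The log2 difference was 0.33 (interval -0.09 to 0.75, adjusted p = 0.661 by limma), or 0.46 without HDM rat 3 (adjusted p = 0.150), and the second Mmp14 probe gave 0.34. Mmp3, or stromelysin, was well above background in only 1 lung array, that of HDM rat 3, where its log2 signal was -4.81. The other HDM rats lay between -6.11 and -5.76, so no fold change is given for it.

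Mmp12, the macrophage elastase, had the widest spread in lung. It measured -1.63, -2.06, -0.06, -1.97 and -2.12 in HDM rats and -2.11, -2.76 and -2.72 in the controls. HDM rat 3 stood well above all other rats, while rat 5 was just below the highest control, so the groups overlapped. The log2 difference was 0.96 ± 0.48 (SE, n = 5 and 3, interval -0.14 to 2.06), with an adjusted p of 0.580 by limma and an exact two-sided permutation p of 0.107. Without HDM rat 3 it was 0.59 (adjusted p = 0.340), and within the second row of the slide it was 0.41.

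None of the inhibitors passed the test in lung. Timp1, the inhibitor that binds the inactive form of Mmp9, measured 1.95, 1.89, 2.24, 1.70 and 1.61 in HDM rats and 1.73, 1.78 and 1.63 in the controls. The groups overlapped, with rat 3 again highest, and the log2 difference was 0.16 (interval -0.19 to 0.52, adjusted p = 0.873 by limma).

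Timp2, which binds Mmp2 and also helps Mmp14 to open it, measured 6.63, 6.62, 6.69, 6.53 and 6.53 in HDM rats and 6.77, 6.81 and 6.71 in the controls. All HDM rats lay below all controls, but by a small distance. Their log2 difference came to -0.16 (interval -0.38 to 0.05, adjusted p = 0.682 by limma).

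Timp3, the inhibitor that stays bound to the matrix, measured 1.03, 0.81, 0.23, 1.47 and 1.06 in HDM rats and 1.56, 1.51 and 1.62 in the controls. Every HDM rat lay below every control, with rat 3 lowest and rat 4 close to the controls. The log2 difference was -0.64 ± 0.25 (SE, n = 5 and 3, interval -1.22 to -0.06), with an unadjusted p of 0.0343 and an adjusted p of 0.425 by limma. Without HDM rat 3 it was -0.47. Timp2 and Timp3 were thus 2 of 9 genes with all HDM rats below all controls, an order that 4.97% of all lung probes showed.

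For Timp3, 2 further probes carry a transcript that is not in the gene table and are named Timp3 only in the authors' list of changed lung genes, which was drawn from these same samples. In lung they gave log2 differences of -0.88 (interval -1.30 to -0.47, adjusted p = 0.0911 by limma, with 1 HDM array missing) and -0.85 (interval -1.39 to -0.31, adjusted p = 0.199). On each, all measured HDM rats lay below all controls. Neither was called, and because both were taken from a list chosen on these samples they are not independent evidence of the direction.

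**Figure D2:**
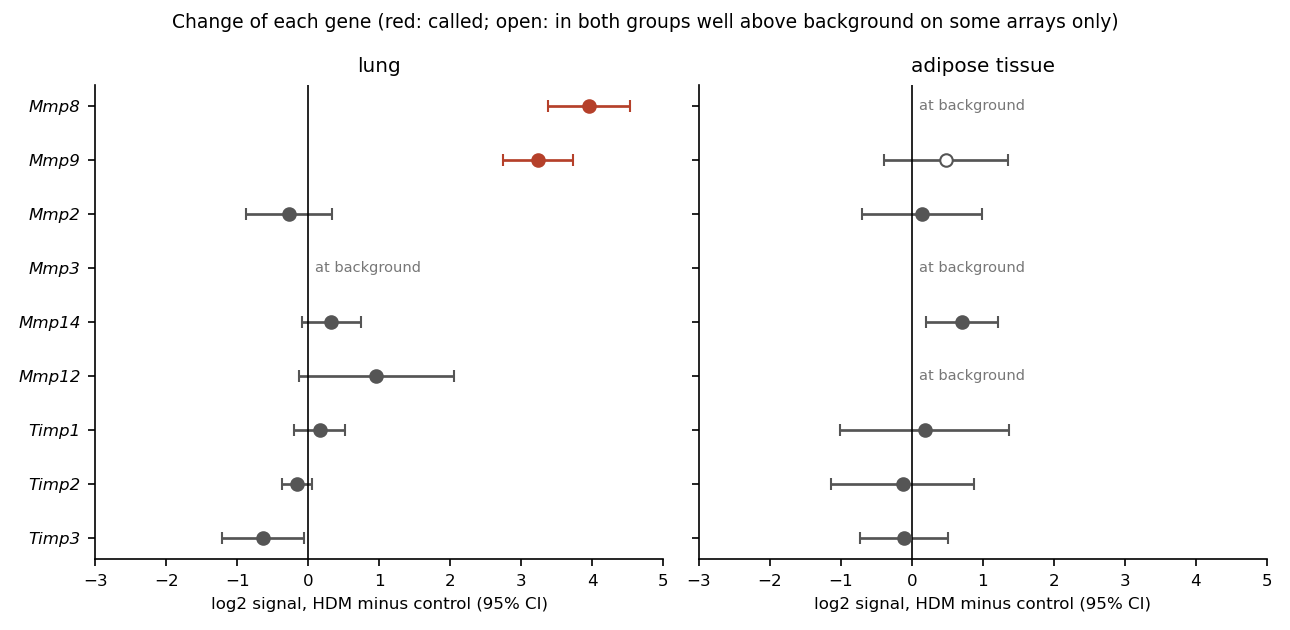
Log2 signal of HDM rats minus control rats for the 9 genes in lung (left) and adipose tissue (right), with 95% confidence intervals from limma (5 HDM and 3 control rats). Red marks the called genes, Mmp8 at 3.95 and Mmp9 at 3.23 in lung; open symbols were well above background on only some arrays of both groups, and genes marked as at background were not well above it on any array of at least 1 group.

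The classes can be set side by side in each rat, as a description only, since the genes were grouped with earlier results of these data known. For each gene the mean of the control rats was subtracted, and Mmp3 was left out as too dim. In lung the mean of Mmp8 and Mmp9 exceeded the mean of Mmp2, Mmp12 and Mmp14 by 3.44, 3.00, 3.56, 3.45 and 2.82 in HDM rats 1 to 5, against -0.41, 0.18 and 0.23 in the controls. Every lung of the HDM group lay above every control lung in this quantity. It is not given for adipose tissue, where Mmp8 was well above background on 0 of 8 arrays and Mmp12 on 1. The change of Mmp9 exceeded that of its inhibitor Timp1 by 2.73 to 3.65 in the lungs of HDM rats.

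In adipose tissue the neutrophil enzymes were dim. Mmp8 was well above background on 0 of 8 arrays, so no fold change is given. Mmp9 was well above background in 4 of 5 HDM rats and 2 of 3 controls. It measured -4.02, -4.14, -3.15, -3.57 and -3.75 in HDM rats and -5.12, -3.89 and -3.62 in the controls. The groups overlapped, control rat 1 was lowest and not well above background, and the log2 difference was 0.48 (interval -0.39 to 1.36, adjusted p = 0.745 by limma). It was 0.026 without control rat 1 and 0.099 without HDM rat 1 and control rat 1.

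Mmp14 had the largest difference of the measurable genes in adipose tissue. It measured 5.10, 4.90, 5.48, 5.38 and 5.52 in HDM rats and 4.30, 4.90 and 4.52 in the controls. HDM rat 2 and control rat 2 met at the same level, and the other HDM rats lay above all controls. The log2 difference was 0.71 ± 0.22 (SE, n = 5 and 3, interval 0.20 to 1.21), with an unadjusted p of 0.0126, an adjusted p of 0.395 by limma and an exact two-sided permutation p of 0.0536. It was 0.61 without HDM rat 1 and control rat 1 and 0.80 without HDM rat 2, and the second Mmp14 probe gave 0.71, with the lowest HDM rat just above the highest control. The 8 measured macrophage markers had positive differences in adipose tissue too, from 0.25 to 0.77 (median 0.55, against -0.15 over all adipose probes), and none was called. Their summed signal, with Cd163 the brightest, was 9.998 to 33.5 times the 75th percentile in HDM rats and 7.60 to 20.2 times in the controls, so the groups overlapped, and their part in the Mmp14 difference was not tested.

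Mmp2 measured 4.64 to 5.82 in the adipose tissue of HDM rats and 4.57 to 5.83 in the controls, a log2 difference of 0.14 (interval -0.71 to 0.99, adjusted p = 0.900 by limma). Without HDM rat 1 and control rat 1 it was -0.0028. Mmp3 was well above background in HDM rats 1 and 3 only, and Mmp12 in HDM rat 1 only, at -3.61 against -6.45 to -5.73 in the other HDM rats.

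The inhibitors were well above background on all 8 adipose arrays, and their groups overlapped. Timp1 lay between 1.91 and 4.40 in HDM rats and between 2.51 and 3.40 in the controls, a log2 difference of 0.18 (interval -1.01 to 1.38, adjusted p = 0.910 by limma). Timp2 lay between 5.97 and 7.79 in HDM rats and between 6.68 and 7.70 in the controls, a difference of -0.13 (interval -1.14 to 0.88, adjusted p = 0.926). Timp3 differed by -0.11 (interval -0.73 to 0.51, adjusted p = 0.895). All 3 inhibitors, and Mmp2, were lowest in HDM rat 1 within the HDM group and in control rat 1 within the controls, the rats with epididymis genes. At its brightest probe, none of the 9 genes separated the groups in adipose tissue. Of all probes there, 1.54% had all HDM rats above all controls and 4.72% had them below.

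The effect of HDM was then compared between the tissues, with lung and adipose samples matched by the rat number in their labels, which do not state in words that a number is 1 animal. For Mmp8 no difference is given, since its adipose signal was at background. For Mmp9 the log2 change in lung exceeded that in adipose tissue by 2.75 ± 0.33 (SE, interval 1.99 to 3.51), with an adjusted p of 0.0995 by limma. The lung signal minus the adipose signal of Mmp9 lay between 2.10 and 2.86 in HDM rats and between -0.80 and 0.41 in the controls, so that the groups did not overlap, and the exact permutation p was 0.0179. No member was called in this comparison, in which 0.00219% of all probes passed. Over the 5 genes well above background on all arrays of both tissues, the difference lay between -0.53 (Timp3) and -0.02 (Timp1).

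Regardless of treatment, the signals of several genes differed between the tissues, with slide and tissue confounded as stated. In all 8 rats Mmp2 and Mmp14 were lower in lung than in adipose tissue, relative to the 75th percentile of each array. The log2 signal of lung minus adipose tissue lay between -3.14 and -0.70 for Mmp2 and between -3.41 and -1.89 for Mmp14. That percentile was itself lower on every adipose array than on any lung array, so this order is stated for scaled signals only. For Mmp9 the order of the group means was lung of HDM rats (-1.25 ± 0.35, SD, n = 5), adipose tissue of HDM rats (-3.73 ± 0.39), adipose tissue of controls (-4.21 ± 0.80, n = 3) and lung of controls (-4.48 ± 0.20). The adipose controls overlapped both of their neighbours in this order. The adipose HDM rats lay above the lung controls, and the lung HDM rats lay above all others. This order too is stated for scaled signals only. In adipose tissue Mmp9 was not well above background in HDM rat 2 or control rat 1, so their places in it are limited by background.

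Neutrophil markers were read beside Mmp8 and Mmp9. Of 12 listed genes, 10 had a probe, and 4 were called in lung, all higher. These were S100a8 and S100a9, which form the calprotectin of neutrophils (log2 differences of 4.46 and 4.09), the receptor for the growth factor G-CSF, Csf3r (2.18), and the chemokine receptor Cxcr2 (2.46). The median difference of the list was 1.34, against 0.00 over all probes. S100a9 was the brightest of the list, and the summed signal of the list was 157 to 310 times the 75th percentile in HDM rats and 19.9 to 46.9 times in the controls. Without S100a8 and S100a9 the sum of the other 8 genes was 35.8 to 59.7 in HDM rats and 12.4 to 37.9 in the controls, and the groups overlapped. Of the 10 genes 8 had a positive difference in lung, and the negative differences were those of Ltf and Cxcr1. An unadjusted p below 0.05 by limma was found for 9 of the 10, so not all of these 9 were higher in HDM rats. Among all 45598 probes 4641 had such a p in lung, and 0.482% were called higher. Cxcr1, another chemokine receptor of neutrophils, had a log2 difference of -0.44 (adjusted p = 0.142 by limma). Ltf, which codes for a protein of the specific granules, and the granule proteases Elane and Ctsg were well above background on 0 of 8 lung arrays, and Ngp was so on 2. The part of neutrophil number in the Mmp8 and Mmp9 differences was not tested.

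In adipose tissue S100a8 and S100a9 were also higher in all HDM rats than in all controls, with log2 differences of 4.66 (adjusted p = 0.154 by limma) and 3.83 (adjusted p = 0.0853), while Mmp8 was at background there. S100a8 measured 0.13 to 2.02 in HDM rats and -4.85 to -2.75 in the controls, of which 2 of 3 were well above background, and S100a9 0.74 to 1.98 and -2.91 to -2.13. The summed signal of the neutrophil list was 3.99 to 9.82 times the 75th percentile in HDM rats and 1.20 to 1.82 times in the controls, but without S100a8 and S100a9 it was 1.22 to 2.76 and 0.940 to 1.51, and the groups overlapped. Of the 10 measured genes 6 had a positive difference, and the other 4 (Ltf, Camp, Ngp and Cxcr1), down to -1.44 for Ltf, were well above background on only some adipose arrays or on 0 of 8. None of the 10 was called, and their median difference was 0.52, against -0.15 over all adipose probes.

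**Figure D3:**
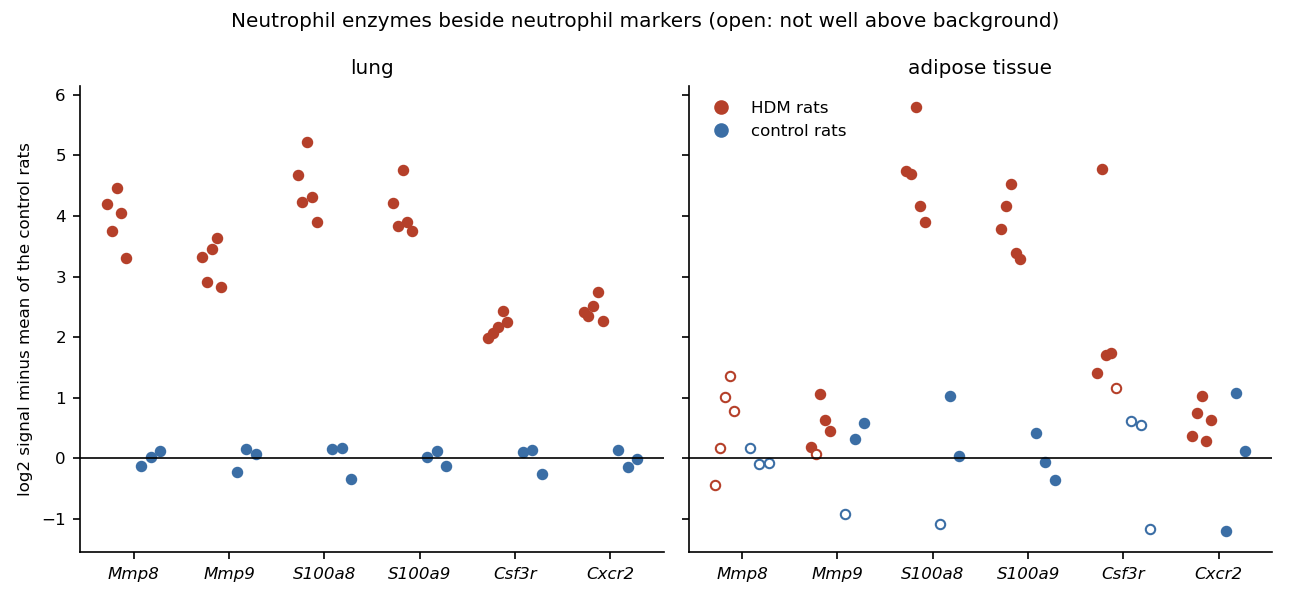
Log2 signal minus the mean of the control rats for Mmp8, Mmp9 and 4 neutrophil markers in lung (left) and adipose tissue (right); each point is 1 rat (5 HDM, red; 3 control, blue), and open points were not well above background. In lung all 6 genes lie 2 or more log2 units higher on average in HDM rats, while in adipose tissue S100a8, S100a9 and Csf3r do so, Csf3r against controls at background, and Mmp8 is at background in every rat.

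Markers of macrophages, fibroblasts and eosinophils gave no call. Of 8 measured macrophage genes none was called in lung, and the largest difference was 0.64 for Adgre1, the macrophage surface protein F4/80 (adjusted p = 0.230 by limma). Their summed signal was 11.2 to 13.3 in HDM rats and 9.88 to 11.0 in the controls, relative to the 75th percentile, with no overlap. Cd68 was the brightest, and 4 of the 8 genes had a positive difference. Of 8 measured fibroblast genes none was called in either tissue. Their summed signal in lung was 27.9 in HDM rat 3, the rat in which Mmp2 and Mmp14 were lowest, and 53.4 to 66.5 in the other 7 rats. In adipose tissue it was lowest in HDM rat 1 (157) and control rat 1 (226), against 249 to 459 in the others. Col3a1 was the brightest of them in both tissues. Of 6 measured eosinophil genes, none was called in lung, with the granule genes Prg3 and Prg2 at adjusted p = 0.0581 and 0.158 by limma and log2 differences of 2.73 and 1.75. Prg3 was well above background in 0 of 3 controls, so the means of these rats differed by at least 2.33-fold. This bound makes no allowance for the spread between rats. All 6 estimates were positive, and the summed signal of the list was 1.83 to 3.31 in HDM lungs and 0.906 to 1.54 in the controls, with no overlap and with Alox15 the brightest. The part of these cells in the differences above was not tested.

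The genes whose lung pattern was most like that of a member were found by the root mean square difference of centred log2 values over the 8 lung arrays, among 12631 gene symbols well above background on at least 5 of them. This is a description of 8 arrays in 2 groups. For Mmp8 the nearest were S100a9 (0.21), Stfa2l2 (0.31), S100a8 (0.34), Mmp9 (0.40) and Nlrp12 (0.63). For Mmp9 they were Nlrp12 (0.32), Sele (0.33), Mmp8 (0.40), Cxcr2 (0.43) and Pglyrp1 (0.48), so the pair lay close to each other. Mmp12 was nearest to Dtd2 (0.28), the cystine transporter gene Slc7a11 (0.33), Atp6v0d2 (0.38), the chemokine gene Cxcl11 (0.39) and Il4 (0.39). Timp3 was nearest to Nectin1 (0.10), Olfml2a (0.12), Scnn1g (0.14), Kit (0.15) and Cpz (0.15).

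Of 17 other listed genes of the family, 16 had a probe mapped through RefSeq, and 0 of these 16 were called in either tissue, with a median log2 difference of 0.00 in lung and -0.07 in adipose tissue, against -0.15 over all adipose probes. In lung the membrane-bound enzymes Mmp15, Mmp16, Mmp17 and Mmp24 differed by -0.16, 0.05, 0.04 and -0.19, and the secreted or shed enzymes Mmp11, Mmp19, Mmp23 and Mmp28 by -0.23, -0.01, -0.27 and -0.11. The collagenase Mmp13 differed by 0.13 and the matrilysin Mmp7 by 0.73 (interval -2.12 to 3.59), each measured on only some arrays of both groups. Mmp1, Mmp10, Mmp20, Mmp21 and Mmp27 were well above background on 0 of 8 lung arrays. In adipose tissue Mmp15, Mmp17, Mmp19, Mmp23 and Mmp28 differed by 0.12, 0.14, 0.32, 0.27 and 0.29, and Mmp24 by -0.50. Of the 16 genes 8 had a positive difference in adipose tissue, and the lowest and highest, Mmp10 (-1.91) and Mmp27 (0.64), were both well above background on 0 of 8 arrays. Mmp7 (-1.09) and Mmp13 (-1.10) were measured there on only 2 of 8 arrays each.

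Timp4, the inhibitor gene best known from heart and fat, was the family member with the smallest p among those measured on all arrays of adipose tissue. It measured 1.44, 1.83, 2.07, 1.43 and 1.62 in HDM rats and 2.41, 3.05 and 2.66 in the controls. Every HDM rat lay below every control, with a log2 difference of -1.02 ± 0.22 (SE, n = 5 and 3, interval -1.54 to -0.51), an unadjusted p of 0.00184 and an adjusted p of 0.275 by limma. In lung the difference was -0.46 (interval -1.02 to 0.10).

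Mmp25, a membrane-anchored enzyme of neutrophils, has a probe that is named only in the authors' list of changed lung genes. In lung it measured -2.33, -2.61, -2.83, -2.31 and -2.57 in HDM rats and -3.60, -4.59 and -5.02 in the controls, with all HDM rats above all controls and 2 of 3 controls well above background. The log2 difference was 1.87 ± 0.30 (SE, n = 5 and 3) with an adjusted p of 0.0389 by limma. It was called in 1 of the 8 fits that left out a rat, with adjusted p values from 0.0111 to 0.182, and not with the slide row as a block (log2 difference 1.83, adjusted p = 0.481 by limma). Being drawn from a list chosen on these samples it is not independent evidence.

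**Figure D4:**
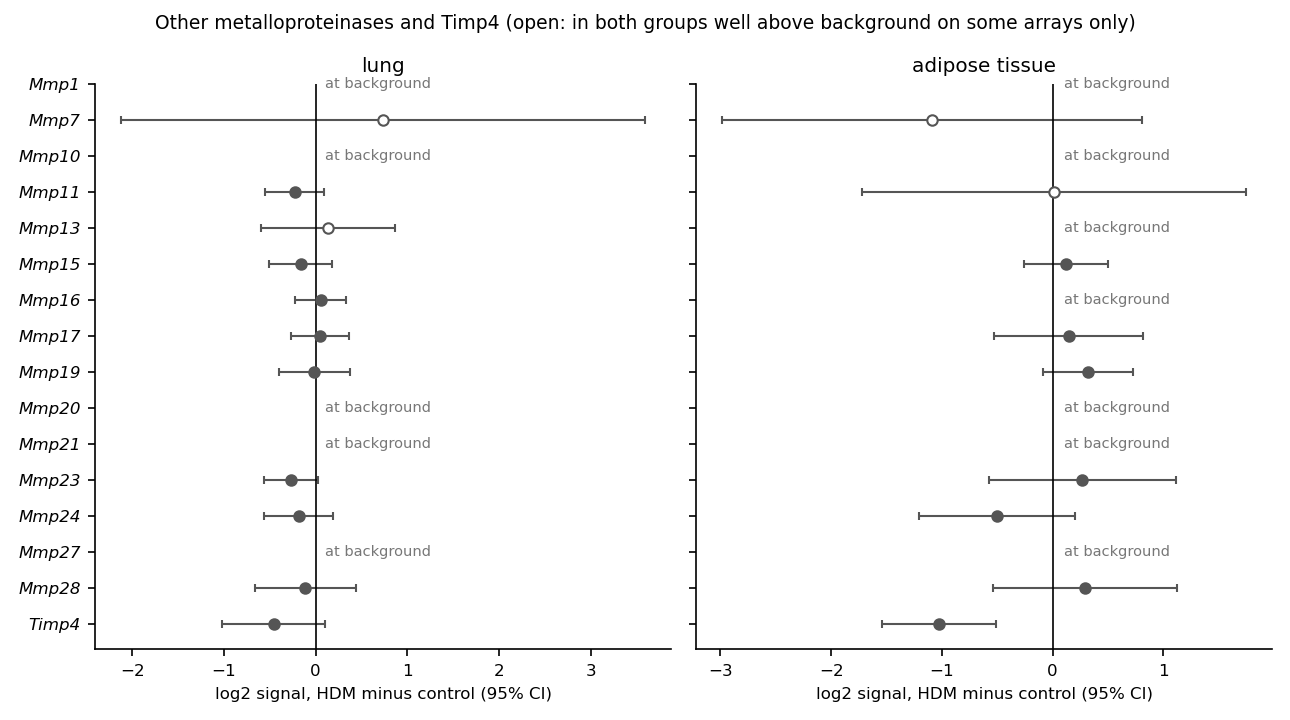
Log2 signal of HDM rats minus control rats for 15 other metalloproteinase genes and Timp4 in lung (left) and adipose tissue (right), with 95% confidence intervals from limma (5 HDM and 3 control rats; the 2 axes have different ranges). Open symbols were well above background on only some arrays of both groups, and genes marked as at background were not well above it on any array of at least 1 group; no gene was called, and Timp4 in adipose tissue lies at -1.02.

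Genes that open, bind or otherwise control the enzymes gave 1 call of 16 measured in lung. Plat, the tissue plasminogen activator, was lower, with log2 signals of 3.87, 3.94, 3.78, 4.04 and 4.01 in HDM rats and 4.60, 4.54 and 4.61 in the controls, a difference of -0.66 ± 0.10 (SE, n = 5 and 3, adjusted p = 0.0334 by limma). The broad protease inhibitor A2m differed by -0.64 in lung (adjusted p = 0.744), and Lcn2, whose product binds Mmp9, by 0.22 (adjusted p = 0.804). A gene of this list with a larger difference in lung is not reported here.

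Of 10 measured ADAM and ADAMTS proteases, the related families that shed cell surface proteins or cut proteoglycans, 1 was called in lung. Adamts9, a versican-cutting enzyme, measured 0.19, 0.50, 0.24, 0.79 and 0.29 in HDM rats and 2.06, 1.67 and 1.60 in the controls. Its signal was lower by 1.37 on the log2 scale (SE 0.18, n = 5 and 3), 2.59-fold, at adjusted p = 0.0179 by limma. The aggrecan-cutting Adamts4 differed by 0.75 (adjusted p = 0.438) and Adamts5 by 0.56 (adjusted p = 0.507).

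Of 11 measured matrix substrates, 1 was called in lung, the large proteoglycan versican. Vcan measured -1.40, -1.77, -1.75, -1.34 and -1.34 in HDM rats and -2.41, -2.73 and -2.82 in the controls, a difference of 1.13 ± 0.16 (SE, n = 5 and 3, adjusted p = 0.0258 by limma). The collagen genes Col4a1, Col3a1 and Col1a2 differed by -0.36, -0.33 and -0.31. The median of the substrates was -0.27, against 0.00 over all probes. Of 10 cytokine genes known to induce these enzymes, 1 was called in lung. Il1b, which codes for interleukin 1 beta, measured 3.41, 4.04, 4.12, 3.79 and 4.63 in HDM rats and 2.49, 2.45 and 2.18 in the controls, a difference of 1.62 ± 0.26 (SE, n = 5 and 3, adjusted p = 0.0373 by limma). Osm differed by 0.70 (adjusted p = 0.292) and Tnf by 0.62 (adjusted p = 0.752), and Il6, Il17a and Ifng were well above background on 0 of 8 lung arrays.

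The calls of Plat, Adamts9, Vcan and Il1b were lost in most fits with 1 rat fewer. Each was called in 2 of the 8 fits that left out a rat, with adjusted p values of up to 0.151, 0.0846, 0.137 and 0.148. Mmp8, Mmp9, S100a8, S100a9, Csf3r and Cxcr2 were called in all 8. With the slide row as a block, S100a8 and Csf3r missed the threshold as Mmp9 did (adjusted p = 0.0539 and 0.0543 by limma). Their log2 differences were then 3.89 and 2.25. S100a9 and Cxcr2 passed it (adjusted p = 0.0412 and 0.0370 by limma). Plat, Adamts9, Vcan and Il1b lost their calls under this block too (adjusted p = 0.505, 0.266, 0.264 and 0.104 by limma). Their log2 differences under it were -0.58, -1.49, 1.31 and 2.26. In adipose tissue none of these lists held a called gene. Adam19, a shedding protease, differed there by 1.09 (adjusted p = 0.549), Adamts5 by 0.88 (adjusted p = 0.561), Adamts4 by 0.91 (adjusted p = 0.384) and Il1b by 0.73 (adjusted p = 0.423). For Adamts4 and Il1b all HDM rats lay above all controls, an order that 1.54% of all adipose probes showed. Lcn2, the lipocalin that binds Mmp9, differed by -1.89 (interval -6.27 to 2.49), and the elastin gene Eln by 0.64 (adjusted p = 0.635). The median differences in adipose tissue were -0.10 for the activators and partners, 0.26 for the ADAM and ADAMTS proteases, 0.19 for the substrates, -0.33 for the cytokines, 0.17 for the fibroblast genes and -0.13 for the eosinophil genes, against -0.15 over all adipose probes. In lung they were 0.08 for the activators and partners, -0.03 for the ADAM and ADAMTS proteases, 0.02 for the cytokines, -0.01 for the macrophage genes, -0.12 for the fibroblast genes and 1.22 for the eosinophil genes, against 0.00 over all probes.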

How the data were processed

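The authors deposited, for each of the 16 arrays, linear spot intensity values that Feature Extraction 12.0.3.1 had corrected for background but not normalized between arrays. A GeneSpring table of log2 values, also deposited by the authors, served as an alternative. After the scaling below and centring on each probe's median within a tissue, 99.97% of its lung and 99.85% of its adipose cells lay within 0.1 of the values used here, and 39 cells that held no number were dropped. Columns of the authors' own comparisons were not used.

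Spots marked as controls or outliers were dropped, log2 values of repeated spots were averaged per probe, and each array's 75th percentile was subtracted. Groups came from the sample labels. HDM and control rats were compared in each tissue with limma 3.58.1 (lmFit, eBayes) in R 4.3.3 over 45598 probes, with Benjamini-Hochberg adjustment and a fold threshold of 1.5, and tissues were compared on the lung minus adipose difference of each rat. The fit was tested on simulated data. Exact permutation tests were two-sided. Among the alternatives was the unpaired t-test that the study's methods name. The labels do not say that samples of a group were handled apart beyond being separate rats, so p-values measure the spread between these rats. Symbols came from RefSeq transcripts of the GRCr8 gene table, which named 21229 probes, and promoter sequences from RefSeq.

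The 9 genes, the gene lists and the alternatives were chosen with earlier results of these data known. Named were the 9 genes, all of the remaining family, and from other lists the called genes and those with the largest changes, and 1 gene that this rule names is not reported here. Genes at background were named after their values were seen, as were Cxcr1, Lcn2, Ltf, Elane, Ctsg, Ngp, Tnf and Col1a2. The nearest patterns were the 5 closest symbols. Alternatives were other tests, scalings and background corrections, a filter on dim probes, array weights, adjustment over probes past 1.5-fold, the replicate number or slide row as a block, a joint fit of both tissues, other probes, and leaving out rats. The Timp3 and Mmp25 probes named only by the authors' list were added after the data had been seen.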

Additional observations from a re-analysis of the deposited data

Results flagged for a closer look

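In each tissue the 5 HDM rats were checked for 1 rat far from the rest, for 18 groups in all (9 genes in 2 tissues), and chance alone marks about 1 in 20 such groups. In lung, HDM rat 3 stood apart for 3 genes. Its log2 signal was -4.81 for Mmp3, where the next rat was at -5.76, and -0.0618 for Mmp12, where the next was at -1.63. For Mmp14 it was lowest at 2.07, below the next rat at 2.64. In adipose tissue, HDM rat 1 stood apart for 2 genes. It was highest for Mmp12 at -3.61, against -5.73 in the next rat, and lowest for Timp2 at 5.97, against 7.29 in the next. The cause of these values was not tested.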

How the results depend on the processing

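Mmp8 and Mmp9 stayed higher in lung under all 21 alternatives, with log2 differences of 2.08 to 4.13 and 1.61 to 3.33, the lowest after normexp correction with an offset of 50 followed by quantile normalization. The count of 2 called members held in 19 of 21; it was 2 to 2 when a rat was left out, 1 with the slide row as a block (Mmp9 at 2.83, adjusted p = 0.0539) and 0 with a replicate block, where limma called no lung probe and 5550 had an unadjusted p below 0.05 (Mmp8 4.13 at adjusted p = 0.171, Mmp9 3.23 at 0.256). HDM and control rats share replicate numbers but were not taken as pairs, since no label pairs them and the study's methods name an unpaired test. Same-numbered lung samples deviated together by -0.08 to 0.05 (correlation), and adipose samples by 0.59 (rats 1, with epididymis genes), 0.14 and 0.097. The methods' t-test called 341 lung and 0 adipose probes, against 390 and 0.

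The count of called lung probes was 100 (without control rat 2) to 333 when a rat was left out, 686 without dim probes, 705 with array weights, 1329 with adjustment over probes past 1.5-fold, 25 with the slide row as a block and 166 in the joint fit. In adipose tissue no member was called under any of 22 alternatives, and the probes called were 7 after quantile normalization, 3 after median scaling, 1 after normexp correction followed by quantile normalization, 5 without dim probes, 338 with array weights, 28 with adjustment past 1.5-fold, 1 with the row as a block and 106 in the joint fit. For the difference between tissues, 2 members were called after normexp correction followed by quantile normalization, 2 in the joint fit, 1 with array weights (Mmp9) and 0 otherwise, with Mmp8 at background in adipose tissue, with 0 to 37 probes called.

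Median scaling moved the median of all adipose probes from -0.15 to 0.14, and there Timp2 became 0.17 and Timp3 0.19. Other reversals were of values near 0. In adipose tissue Mmp2 became -0.0567 with array weights, -0.0493 with the replicate block, -0.19 without control rat 1 (-0.19 to 0.44 over the rats left out in turn) and -0.0028 without HDM rat 1 and control rat 1. Timp1 became -0.21 with the replicate block, -0.0976 without HDM rat 4 and -0.11 without control rat 1 (-0.11 to 0.53 over the rats), and in lung -0.11 with the slide row as a block. Timp2 became 0.16 with the row as a block, 0.18 without HDM rat 1, 0.059 without control rat 2 and 0.0019 without control rat 3 (-0.45 to 0.18 over the rats). Timp3 became 0.16 without control rat 2 (-0.37 to 0.16 over the rats). The cause was not tested. Mmp3 in both tissues and Mmp8 and Mmp12 in adipose tissue are limited by signal near background.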
